A study of Drosophila melanogaster with 4 samples.

Results

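A set of 49 array features (0.223% of 21928 unflagged spots) gave a strong signal in both pools of adult male Drosophila melanogaster and a signal near or below that of the middle spot in both pools of adult females. They were chosen on the measured values themselves: net signal (mean pixel of the spot minus mean pixel of its local background) was divided by the median net signal of the unflagged spots of the same sample, and a spot was taken where this relative signal was at least 5 in both male samples and at most the female limit, set at 125% of the median, in both female samples. A relative signal of 1 is therefore the middle spot of that sample, and one of 5 is 5 times it. Because the male against female contrast chose the spots, their sex difference is described here and not tested.

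The 4 samples are total RNA of pooled flies: 1 male pool with wash (Cy5), 1 male pool without wash (Cy3), 1 female pool with wash (Cy3) and 1 female pool without wash (Cy5). All were intact adults of 1 genotype, which the labels do not name, and the design text calls the replicates independent. The number of flies in a pool, their age in days and the nature of the wash were not found in the labels. Spot flags were identical between the sexes within each wash state, so each wash state was read as 1 slide carrying a male and a female pool. Wash cannot be told apart from slide, and dye cannot be told apart from an effect of the wash on the sex difference.

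In adult flies, transcripts found mainly in males come largely from the reproductive tract. The testis transcribes many genes for spermatogenesis that are little used in other tissues, and the accessory glands and ejaculatory duct and bulb secrete the seminal fluid proteins that are passed to the female at mating. In females, the ovary and the fat body, which makes yolk proteins, hold the matching female-biased RNAs. The gene field is blank at every spot of the files used here, so the 49 spots are named by array row and column, and no gene, tissue or probe sequence is given for any of them. The sex labels could likewise not be set against known sex-specific genes. In bulk RNA of this kind, fewer cells of a type and less RNA per cell cannot be told apart.

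The 49 spots were bright in males without being among the brightest. Their relative signal ran from 5.04 through a median of 6.43 to 32.1 in males with wash, and from 5.07 through 7.28 to 41.2 in males without wash. In females it ran from 0.389 through 0.737 to 1.16 with wash, and from 0.485 through 0.984 to 1.249 without wash. A median spot of the 49 thus exceeded 87.1% of all unflagged spots in males with wash and 86.5% in males without wash. Among all unflagged spots, the highest relative signal was 598 in males with wash and 913 in males without wash, far above any of the 49.

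The working description "near-absent in females" could not be settled from the levels. The same median spot exceeded 37.6% of all unflagged spots in females with wash and 49.6% in females without wash, so its rank was not at the bottom of the array. The middle spot was itself dim, however. Median signal over local background of all unflagged spots was 3.48 in females with wash and 2.21 without wash. These ranks therefore do not tell weak expression from absence. Relative signal was below 1 in 42 of the 49 spots in females with wash, in 28 in females without wash and in 22 in both. It was below 0.5 in 3 spots with wash and 1 without wash. The spots are therefore described as male-strong spots with a middling or low female signal.

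**Figure D1:**
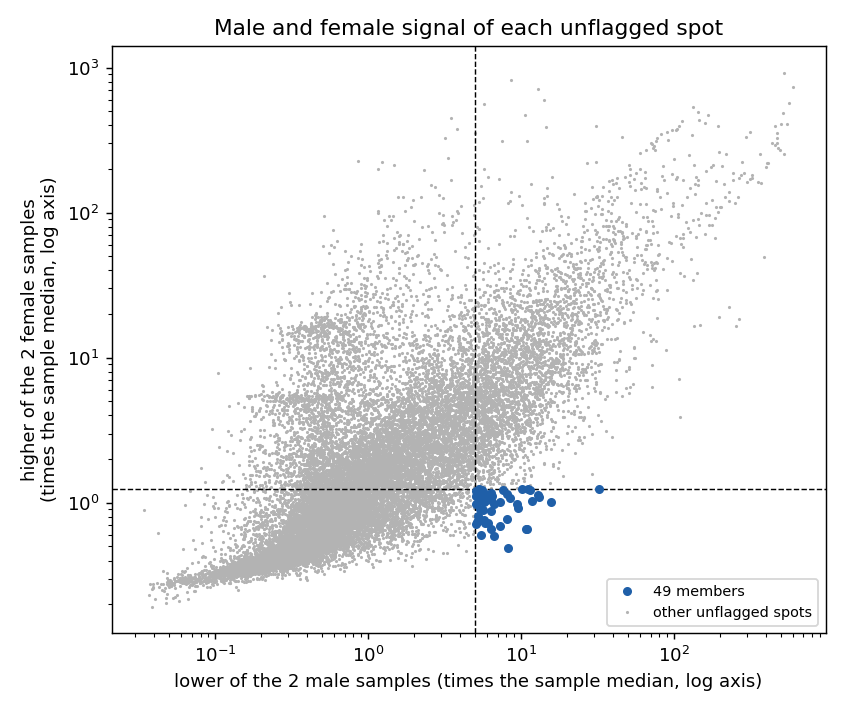
Each point is an unflagged spot, with the lower of its 2 male relative signals on the horizontal axis and the higher of its 2 female relative signals on the vertical axis, both in multiples of the sample median on log axes; dashed lines mark the male and female limits, and 3 spots under 0.02 on an axis are not drawn. The 49 spots (blue) fill the lower right corner, next to a continuous cloud with no gap at either limit.

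Against local background, the female signals were weak. All 49 spots reached 2 times their local background in both male samples, where signal over background ran from 11.3 to 70.99 with wash and from 11.3 to 91.5 without wash. In females, 48 reached it with wash and 32 without wash. Female signal over background had a median of 2.88 (range 1.97 to 4.06) with wash and 2.19 (range 1.58 to 2.59) without wash. Among all unflagged spots these medians were 3.48 and 2.21, and 91.8% and 55.1% reached 2 times background in females with and without wash. In all, 32 of the 49 spots reached it in both female samples and 16 in 1. At 1.5 times background all 49 passed in both female samples, and at 3 times 0 did. The female limit caps these signals, and no spot within it could reach 3 times background without wash. The counts are therefore not read as a result.

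A single spot fell short of 2 times background in both female samples. Row 40, column 9 had relative signals of 8.22 and 10.5 in males with and without wash, against 0.389 and 0.485 in females with and without wash, the lowest female pair of the 49. Its female signal over background was 1.97 with wash and 1.60 without wash, so only a bound can be given. In normalized log2 values the male mean was 9.10 and the female mean 6.25, and the male level was at least 6.71-fold higher than the dimmest female signals that reached 2 times background. The bound was 13.5-fold with plain background subtraction and 12.4-fold with a smaller offset. In such bounds the dyes were exchanged between slides.

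One spot stood far above the others in males. Row 48, column 69 had relative signals of 32.1 in males with wash and 41.2 in males without wash (mean 36.7 ± 6.42 SD, n = 2), against 0.615 and 1.24 in females with and without wash (mean 0.927 ± 0.441 SD, n = 2). The male to female ratio was 52.2 with wash and 33.3 without wash. Both male samples lay far above both female samples, and the ratio differed between slides mainly through the female value, which was low with wash and just under the female limit without wash. It ranked first of the 49 in both male samples.

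Behind it came 9 spots with mean male signals of 17.4 or less. Row 43, column 18 had 19.1 and 15.7 in males with and without wash, against 1.02 and 0.808 in females with and without wash. Row 60, column 30 had 12.9 and 18.5 in males, against 1.12 and 0.744 in females, in the same order of wash. In the first of these both sexes were higher with wash, while in the second the male signal was lower and the female signal higher with wash. Without wash the female signals of the first and the second were 1.99 and 1.93 times their local background, under the 2 times used above. Row 55, column 15 had 12.997 and 14.9 in males with and without wash, against 0.728 and 1.10 in females with and without wash. Row 26, column 146 had 11.8 and 15.6 in males, against 0.853 and 1.03 in females. For both, the male samples lay more than 10 times above the female samples on each slide.

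The remaining 5 of the brightest 10 had similar male signals and differed in their female signals. Row 76, column 194 had 10.9 and 15.6 in males with and without wash, against 0.413 and 0.656 in females with and without wash. Row 29, column 22 had 10.7 and 14.4 in males, against 0.507 and 0.655 in females. In both, the 2 female samples lay below the middle spot, and the female signal without wash was under 2 times its local background, at 1.84 and 1.79 times. Row 57, column 162 had 11.4 and 13.6 in males with and without wash, against 0.881 and 1.22 in females with and without wash. Row 79, column 143 had 11.05 and 13.9 in males, against 0.824 and 1.24 in females. Row 61, column 169 had 10.1 and 11.9 in males, against 0.917 and 1.24 in females. In these 3 the female sample without wash was above the middle spot and the one with wash below it.

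The other 39 spots crowded towards the male limit. Their relative signal ran from 5.04 through 6.10 to 10.3 in males with wash, and from 5.07 through 6.97 to 13.5 in males without wash, against 0.389 through 0.728 to 1.16 in females with wash and 0.485 through 0.960 to 1.249 in females without wash. By mean male signal, 9 of the 49 lay under 6, 23 from 6 to under 8, 8 from 8 to under 12, 8 from 12 to under 20 and 1 above that. Ranked by the higher of the 2 female samples, the lowest spots outside the brightest 10 were row 40, column 9, and the next 4. Row 97, column 152 had 6.68 and 7.44 in males with and without wash, against 0.592 and 0.552 in females with and without wash. Row 105, column 81 had 6.62 and 5.48 in males, against 0.595 and 0.596 in females. These were among the few spots whose 2 female samples nearly coincided. Row 25, column 28 had 6.37 and 7.06 in males with and without wash, against 0.494 and 0.664 in females with and without wash. Row 96, column 109 had 8.16 and 7.21 in males, against 0.690 and 0.630 in females. Without wash the female signals of these 4 were under 2 times local background, at 1.72, 1.79, 1.80 and 1.80 times in the order given.

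**Figure D2:**
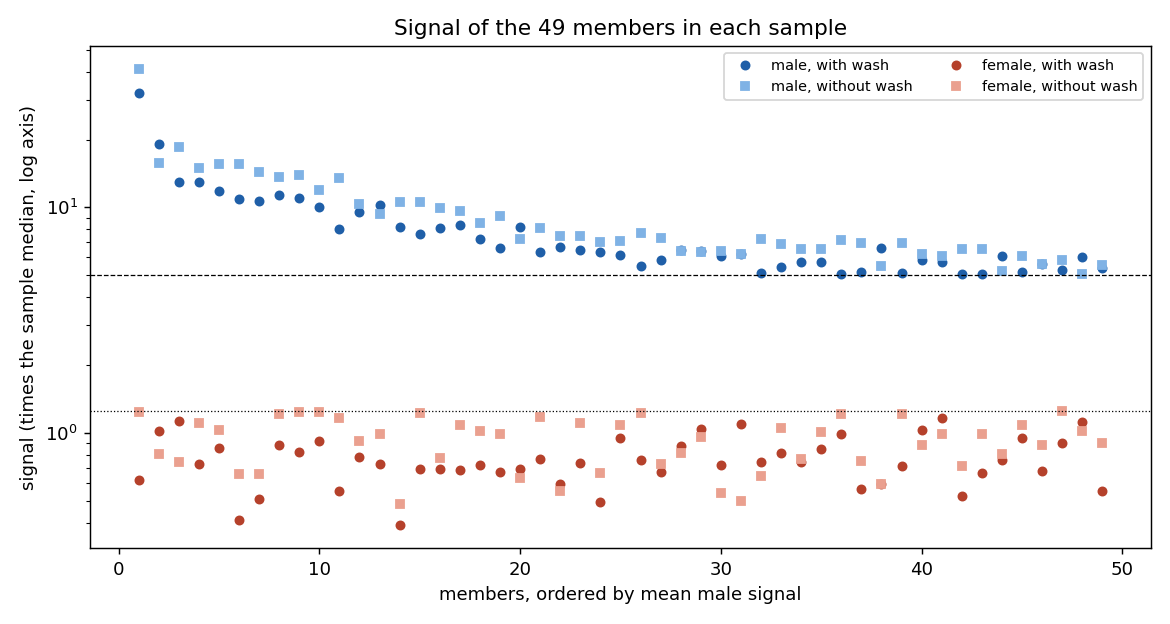
Relative signal (multiples of the sample median, log axis) of the 49 spots in the 4 samples, ordered along the horizontal axis by mean male signal; circles are samples with wash, squares samples without wash, blue males, red females, and the dashed and dotted lines mark the male and female limits. Male signal drops steeply over the first spots and then flattens near the limit of 5, while female signal shows no matching slope.

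The order of the spots was shared between the 2 male samples and much less so between the 2 female samples. Over the 49 spots, log2 relative signals correlated with r = 0.92 (Spearman's rho 0.77) between males with and without wash, and with r = 0.37 (rho 0.34) between females with and without wash. Without row 48, column 69 the values were 0.88 (rho 0.75) in males and 0.40 (rho 0.38) in females over 48 spots. Between the sexes r was -0.05 with wash and 0.19 without wash. Over the 21924 unflagged spots with a net signal of at least 1 in every sample, the same pairs gave 0.86 in males, 0.87 in females, and 0.72 and 0.73 between the sexes with and without wash. The limits narrow the range of the 49 spots, most of all in females, and spots of a pair share a slide or a sex and each sample's scaling, so these values are descriptions. Of the 10 brightest spots in males with wash, 9 were also among the 10 brightest in males without wash, and of the 10 dimmest in females with wash, 6 were among the 10 dimmest in females without wash.

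Male to female ratios of relative signal had a median of 9.70 (range 4.96 to 52.2) with wash and 9.20 (range 4.70 to 33.3) without wash. On both slides 49 of the 49 ratios were at least 4, 27 at least 8, 16 at least 10 and 5 at least 16. The limits alone force a ratio of 4. Where the female signal was under 2 times local background, which was the case without wash for all but 32 of the 49 and with wash for 1, the size of the ratio rests on a weak female value. The lower male sample exceeded the higher female sample by 4.16-fold at the least, 7.08-fold at the median and 25.9-fold at the most. The ratio was larger with wash in 29 of the 49 spots.

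After background correction with an added offset and normalization, the same differences were smaller. The normalized log2 male minus female difference had a median of 2.10 over the 49 spots (range 1.52 to 4.20) and was 4.20 for row 48, column 69, or 18.3-fold. The offset raises dim values, which shrinks the ratios of spots that are dim in females. With plain background subtraction the median was 2.88. The normalization changed it too: at the same offset it was 2.40 with median scaling only and 2.34 with quantile normalization. All 49 passed the limma threshold with the higher value in males, as did 15.1% of all unflagged spots, and 28 had a log2 difference of at least 2, as did 0.848% of all unflagged spots. The rule used this contrast, so neither count is read as a result. The difference was positive for all 49 on each slide, with a median of 1.97 with wash and 2.28 without wash. Among all unflagged spots it was positive for 49.8% with wash and 47.4% without wash. The limits apply on each slide, so this sign is not read as a result either.

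**Figure D3:**
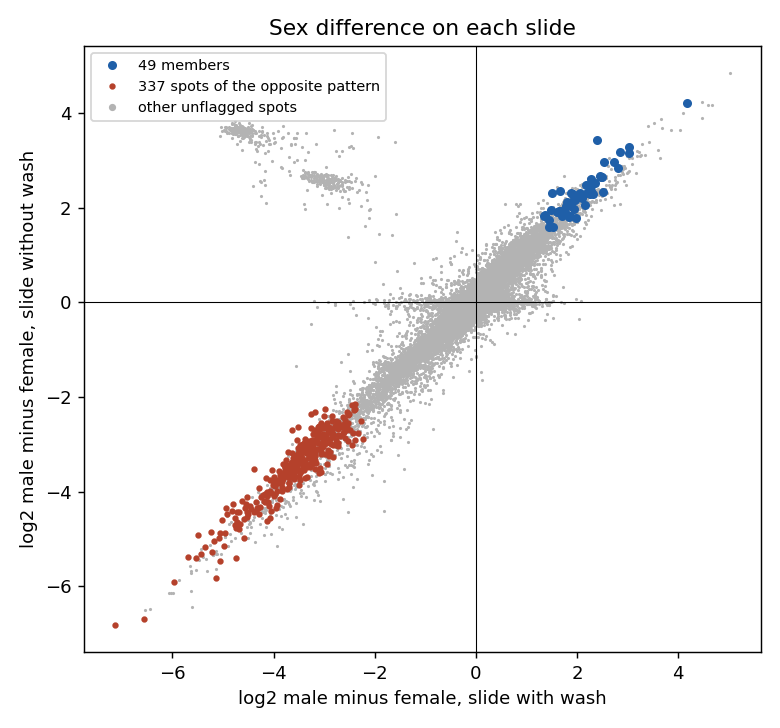
Normalized log2 male minus female difference of each unflagged spot on the slide with wash (horizontal) and on the slide without wash (vertical), with the 49 spots in blue, the 337 spots of the opposite pattern in red and all others in grey. The 49 lie near the diagonal, between 1.35 and 4.17 with wash and between 1.59 and 4.22 without wash, and none lies in the detached grey clouds at the upper left.

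Reading 1 slide after choosing on the other gives values that the choice did not use. With both limits applied on the slide with wash alone, 174 spots were chosen. On the slide without wash, 172 of these had a higher relative signal in males than in females and 140 a ratio of at least 4, with a median of 5.93, while 65.1% and 5.02% of all unflagged spots did so there. Many unflagged spots are dim in both sexes. Among the 3301 spots with a relative signal of at least 5 in both male samples, the median ratio on that slide was 1.51. These 3301 were chosen in part on the male signal of that slide, and the 174 include the 49. The comparison was therefore not tested. Of the 174, 161 met the male limit on the slide without wash and 58 the female limit, so it was mostly the female signal that moved spots out. The median relative signal of the 174 on that slide was 7.74 in males, against 1.47 in females.

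With both limits applied on the slide without wash alone, 487 spots were chosen, and 393 of them were among the 426 unflagged spots at least 8-fold brighter in Cy3 than in Cy5 on average. Males carried Cy3 on that slide and females on the other. On the slide with wash the median ratio of the 487 was 0.0595, and 85 were higher in males. The Cy3-bright spots are defined by the values of both slides, so the other 94 spots were not read as a set of their own. None of the 49 spots was Cy3-bright: asking for the limits in both dyes left 0 of them.

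The 49 spots are a small tail of the male-bright spots. Of 3301 spots with a relative signal of at least 5 in both male samples, 1.48% were among the 49. The higher female signal was above the female limit and up to 2.5 in 256 of the 3301, above 2.5 and up to 5 in 657 and above 5 in 2339. Of the 10919 spots at or under the female limit in both female samples, 9955 had a lower male sample under that limit as well, 698 from it to under 2.5 and 217 from 2.5 to under 5. The opposite pattern, at least 5 in both female samples and at most 125% of the median in both male samples, held at 337 spots, which is 12.7% of the 2652 spots strong in both female samples. These shares follow from fixed limits and were not tested.

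Set beside the 213 spots that were also at least 4-fold higher in males on both slides but lay above the female limit in both female samples, the 49 were dimmer in males. Their median male signals of 6.43 with wash and 7.28 without wash compare with 17.1 and 20.2 for the 213. The ratios of the 213 were smaller, with medians of 7.63 with wash and 5.03 without wash. Both sets were cut from the same values, so this difference was not tested.

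Spots just on either side of the limits differed little. Closest inside the male limit were row 9, column 164, with 5.04 and 7.16 in males with and without wash against 0.987 and 1.21 in females, row 40, column 152, with 5.07 and 6.56 against 0.523 and 0.716, and row 11, column 28, with 6.03 and 5.07 against 1.12 and 1.01. Closest outside it were row 9, column 76, with a lower male signal of 4.93, row 59, column 1, with 4.91, and row 95, column 57, with 4.89. The spot at row 95, column 57 had 7.88 in males with wash and at most 0.640 in females. Closest inside the female limit were row 14, column 99, at 1.249, row 61, column 169, at 1.24, and row 48, column 69, at 1.24. Closest outside it were row 88, column 161, at 1.26, row 79, column 118, at 1.27, and row 26, column 152, at 1.28. Of these, row 79, column 118 had 9.42 and 10.2 in males with and without wash.

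The number of spots depended strongly on the limits. A male limit of 4 gave 87 and of 6 gave 29, and a female limit of 1.5 gave 89 and of 1 gave 22. Without the limit on the female sample without wash, 161 spots met the other 3 limits, against 58 to 76 when the limit on 1 of the other samples was dropped. That sample therefore decided membership more than any other.

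The difference between the slides within 1 sex was not used by the rule as such, although all 4 limits bound it. In relative signal, 41 of the 49 spots were lower with wash in males and 37 in females, 34 of them in both. Among all unflagged spots 71.7% were lower with wash in males and 58.7% in females. The with wash to without wash ratio of the 49 had a median of 0.853 (range 0.597 at row 72, column 187, to 1.21 at row 43, column 18) in males and 0.773 (range 0.474 to 2.19) in females. The 2 male samples lay within 1.5-fold of each other in 48 of the 49. The log2 of the male wash ratio had quartiles of -0.37 and -0.08 in the 49. Over the 3301 spots strong in both male samples these were -0.32 and -0.04, so the closeness is not particular to the 49.

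In the normalized values, which differ from relative signal in background correction, loess and Aquantile together, the direction was less uniform. The log2 with wash minus without wash difference had a median of -0.13 in males, where 11 of the 49 were above 0, and of 0.03 in females, where 29 were above 0. Over all unflagged spots the medians were -0.10 and -0.05, with 35.7% and 41.6% above 0. Averaged over the sexes, the difference was above 0 in 19 of the 49 spots, in 14 each with quantile normalization and with median scaling only, in 38 with median pixels and in 42 with no normalization. The last differs from median scaling by a shift that all spots share, with medians over all unflagged spots of 0.08 and -0.19. No direction of the 49 is given.

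**Figure D4:**
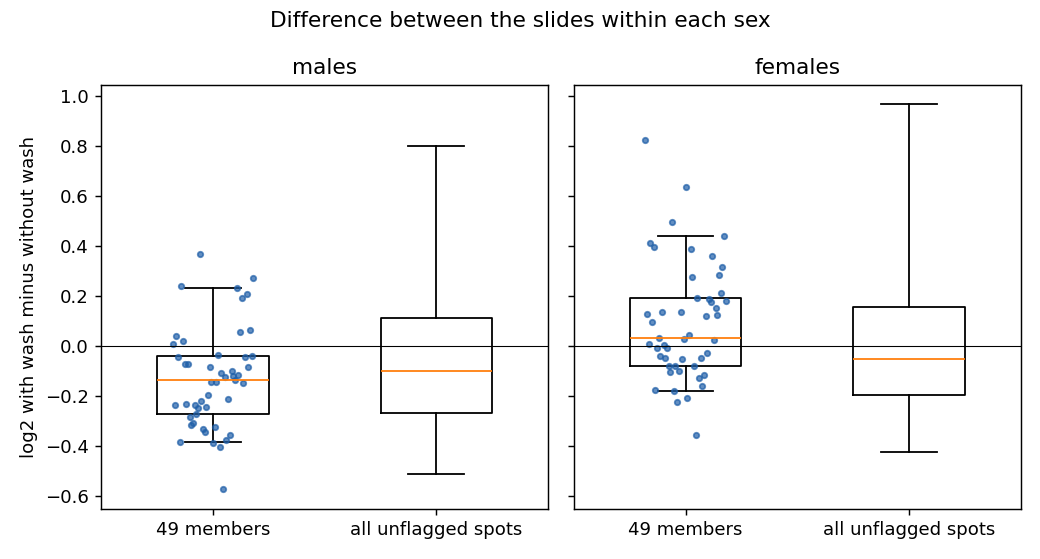
Normalized log2 difference, with wash minus without wash, in males (left) and females (right), for the 49 spots (points and box) and for all unflagged spots (box); boxes give the quartiles and median, and whiskers the 5th and 95th percentiles. The 49 range from -0.57 to 0.37 in males and from -0.36 to 0.83 in females.

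In the limma fit with sex and slide, the slide term had an adjusted p under 0.05 at 0 of the 49 spots and at 0 of all unflagged spots (0%). At an unadjusted p under 0.05, 3 of the 49 passed, while 35.9% of all unflagged spots (7862) did. Over the alternatives this count of the 49 ran from 0 with median scaling only to 11 with an offset of 16. With median pixels it was 10, where 4728 of all unflagged spots passed. The limits bound this difference, so the count is not read as a result. Row 43, column 18 was higher with wash by 0.43 (SE 0.09, limma adjusted p = 0.097), with 0.37 in males and 0.50 in females. Row 72, column 187 had a slide difference of -0.47 (SE 0.11, limma adjusted p = 0.102), with -0.57 in males and -0.36 in females. Its relative signals were 8.03 and 13.5 in males with and without wash, against 0.550 and 1.16 in females, so that both sexes were lower with wash. Row 11, column 28 was higher with wash by 0.32 (SE 0.10, limma adjusted p = 0.137). With median scaling in place of loess 2701 spots passed for the slide term, and 4523 did without the Cy3-bright spots, with 0 of the 49 in either case.

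For the Cy3 minus Cy5 difference, fitted with sex and dye, 0 of the 49 passed the adjusted limma threshold, while 2.13% of all unflagged spots did. At an unadjusted p under 0.05, 0 of the 49 and 2.91% of all unflagged spots passed. The rule asks for its limits in both dyes of each sex, which bounds this difference and keeps Cy3-bright spots out. Neither count is therefore read as a result. The median Cy3 minus Cy5 difference over the 49 was 0.10 (log2, range -0.10 to 0.51), positive in 43 spots. It was positive in 6 after quantile normalization and in 7 after median scaling only, so no direction is given. The largest value, 0.51, was that of row 60, column 30.

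The 49 spots were scattered over the array. They lay in 41 of its 105 rows, with at most 2 in any row, and in 38 of its 215 columns. The first 35 rows held 13 of them, the next 35 held 17 and the last 35 held 19, or 26.5%, 34.7% and 38.8%, where all unflagged spots lay at 33.9%, 34.0% and 32.1%. In 2 pairs the spots were within 5 rows and columns of each other. These were row 91, column 91 with row 89, column 89, and row 88, column 125 with row 89, column 123, each 2 apart. A single spot of the 49, at row 91, column 168, lay in the corner of the slide without wash where local background was raised. That corner held 1272 of the 21928 unflagged spots. The local background of this spot without wash was 21.0 in males and 39.6 in females. Over all unflagged spots the medians were 23.1 and 41.1.

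**Figure D5:**
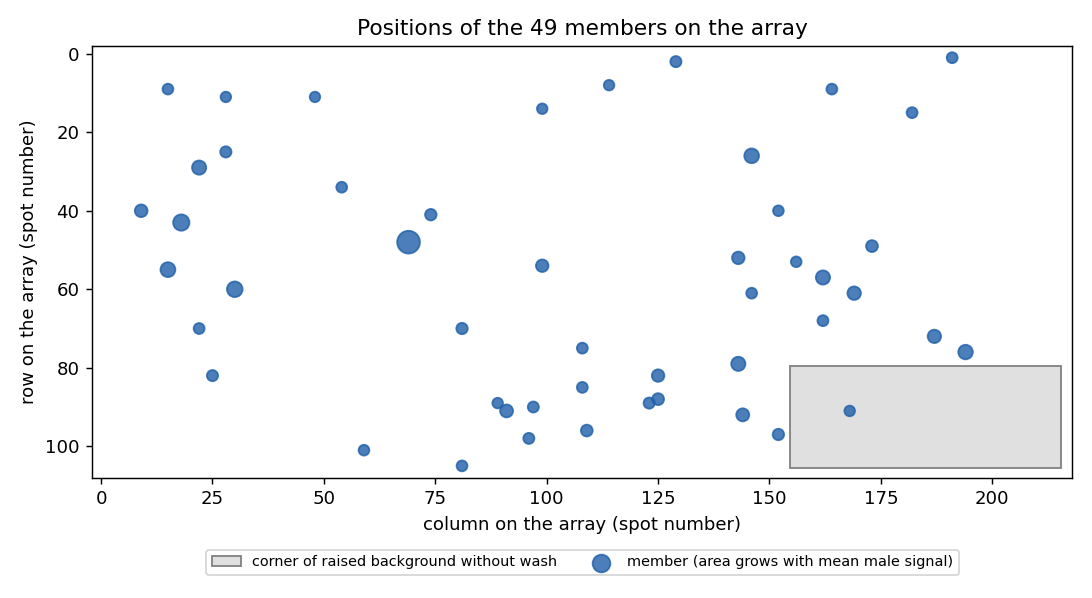
Array position of the 49 spots, by column (horizontal) and row (vertical, row 1 at the top), with point area growing with mean male relative signal; the grey box is the corner of raised background on the slide without wash. The spots are spread over the array, and 1 lies in the corner.

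Spots next to the 49 did not share their male signal. Of 381 unflagged neighbours, counting the 8 positions around each spot, 51 (13.4%) had a relative signal of at least 5 in both male samples, as did 15.1% of all unflagged spots. Their median relative signal was 0.938 in males with wash and 0.855 in males without wash, against 0.971 and 0.990 in females with and without wash. Local background at the 49 was also like that of the array, with medians of 39.5 and 22.4 intensity units in males with and without wash and 24.1 and 40.5 in females. Over all unflagged spots these were 39.9 and 23.1 in males and 24.3 and 41.1 in females.

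The pixels within a spot, which the rule summed up by their mean, were also read by their median. The net median pixel was above the net mean in 41 of the 49 spots in males with wash and in 49 in males without wash, against 21 and 35 in females with and without wash. Among all unflagged spots this held for 30.1% and 91.3% in males and for 48.3% and 67.5% in females. The ratio of net median to net mean pixel had a median of 1.18 with wash and 1.24 without wash in males, against 0.984 and 1.03 in females. Over the 3301 spots strong in both male samples the male medians were 1.19 with wash and 1.26 without wash. The male values are therefore not particular to the 49. With median pixels in the rule, 44 of the 49 again met both limits. The whole array then gave 104 spots.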

How the data were processed

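Per the file headers, each of the 4 deposited scanner files gives pixel intensity in 1 dye channel (mean, median and mode) for every spot and for its local background, which was not subtracted. The values that the authors deposited as a series table matched the natural log of net mean signal (largest difference 8.96e-08) and served as an alternative. The scanner and its software are not named in the labels or files. Samples were grouped by sex from the labels.

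Spots flagged in any file (647 of 22575) were left out. The limits were 5 for males and 1.25 for females, on net mean signal over its median, which was 88.7 and 49.5 in males with and without wash and 60.1 and 50.5 in females. The number of arrays limits the precision.

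For the fits, intensities were corrected with normexp (offset 50), normalized by loess within and Aquantile between slides, and fitted per channel on sex and slide, or sex and dye, in limma 3.58.1 (R 4.3.3; lmFit and eBayes, trend on). Two-sided p-values were adjusted over 21928 spots (Benjamini-Hochberg, 0.05). Each fit has 1 residual degree of freedom, and the smallest p of an exact 2 against 2 comparison is 0.333. After eBayes the median total degrees of freedom were 2.86 with sex and slide and 21928 with sex and dye. In the sex and dye fit the variance thus came from the trend over all spots, and its p-values carry no spread of the single spot. The same held for some alternatives, median scaling only among them. The other p-values measure the spread between these samples only. The scripts were tested on simulated data.

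Spots were named by rule: the 10 brightest in males, the 5 lowest in females among the others, the 3 largest and smallest wash ratios in males, and the 3 nearest each limit on either side. The spots, limits and corner were chosen with earlier results of these data known. Marker lists, which need gene names, were not used.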

Additional observations from a re-analysis of the deposited data

How the results depend on the processing

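The count of male-strong spots was 49. It was 104 with median pixels, 87, 29 and 10 with male limits of 4, 6 and 10, and 22, 89 and 1 with female limits of 1, 1.5 and 0.5. It was 58 to 161 with the limit on 1 sample dropped (161 without female replicate 1, 76 without male replicate 2), and 174 and 487 on the slides with and without wash alone, an alternative added after seeing the data. The other 7 alternatives gave 35 to 54. Of these, no background subtraction gave 35 spots, of which 19 were among the 49, and scaling on the 75th percentile gave 54, with 44 of the 49. Of the 104 with median pixels, 44 were among the 49. Replicate 1 of each sex is the pool without wash and replicate 2 the pool with wash. Spots higher in males numbered 3306 in limma, but 4 with no normalization, 5010 with median pixels, 2126 in the authors' value table, 2000 with no replicate block (the slide as pairing), 1912 with dye in its place, and 1000 to 1759 with a sample left out and no block (1266 without female replicate 1, 1759 without female replicate 2, 1081 without male replicate 1 and 1000 without male replicate 2). The other 6 alternatives gave 2807 to 3988. For the slide, 0 spots passed in limma (7862 at an unadjusted p under 0.05), against 2701 after median scaling and 4523 once Cy3-bright spots were left out, and Cy3 minus Cy5 had 468, but 0 with no normalization. Of the 49 spots, 32 reached 2 times background in both female samples, 49 reached 1.5 times and 0 reached 3 times. The female limit caps these counts. The bound for row 40, column 9 was 6.71-fold, and 13.5 and 12.4 with plain subtraction and an offset of 16. Causes were not tested beyond what the alternatives change by construction. The rule chose the 49 spots on the male against female contrast, and its limits force a ratio of 4 in relative signal. None of the 20 named spots reversed under the 15 alternatives, which is therefore not read as support. With no normalization 19 lost the limma threshold, and without male replicate 2, 1 did. Female signals close to local background, 2 pools a sex and 1 slide per wash state limit what can be read from these spots.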
